A study of Drosophila melanogaster with 20 samples.

Results

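The regions described here are 50-kb windows of the Drosophila melanogaster autosomal arms 2L, 2R, 3L and 3R that were rich in H3K27me2 and poor in H3K27me3 in larval salivary glands. A window was a member when its log2(ChIP/input), averaged over wild type and SuUR mutants, was at least 0.2 for H3K27me2 and below 0 for H3K27me3. On the arms 887 of 19227 windows met both conditions, which is 4.61% of them, and 27585 windows of the whole genome had a value in all 4 profiles. Windows follow each other at steps of 5 kb, so that neighbours share most of their sequence. The members merged into 206 domains with a summed length of 15.26 Mb.

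The series asked how loss of SUUR protein changes H3K27 methylation, and in salivary glands it profiled H3K27me3 (CST #9733) and H3K27me2 (Millipore #07-452). Wild type was the y,w strain, and the other genotype was the SuUR mutant. Both were raised at 23 °C, and 20 pairs of glands from 3rd instar larvae went into a sample. For each genotype and mark there was 1 ChIP library and 1 input library, combined by the authors into 1 profile, so no value below has a replicate error and no difference between genotypes could be tested. Read counts are not given with the profiles, so the depth behind them is unknown. The authors quantile normalized each mark between the genotypes, so that both genotypes have the same set of values over the genome, and any change common to all windows is lost.

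The methyltransferase E(z), the catalytic subunit of Polycomb repressive complex PRC2, places both marks on lysine 27 of histone H3. H3K27me2 is known as a widespread mark of inactive chromatin in Drosophila, whereas H3K27me3 is concentrated in repressed domains, many of them bound by PRC1, whose Pc subunit recognizes it. Salivary gland chromosomes are polytene, with DNA replicated over and over without division. SUUR protein slows replication forks in late-replicating chromatin, where the DNA of wild type glands remains under-replicated.

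The members were chosen by the mean levels of both marks over the genotypes, so the levels below describe the members and support nothing about their choice. The members ranged in mean H3K27me2 from 0.2 to 0.65, where 0.2 stands for a 1.15-fold enrichment over input. Wild type had a median H3K27me2 of 0.25 (from -0.18 to 0.92) and SuUR mutants one of 0.29 (from -0.075 to 0.74), against 0.0050 in each genotype over all arm windows. For H3K27me3 the medians were -0.08 (from -0.66 to 0.42) and -0.125 (from -0.65 to 0.345), against -0.095 and -0.04 over all arm windows. H3K27me3 in the members was therefore close to its usual level on the arms in wild type and below it in SuUR mutants. In both genotypes the H3K27me2 level stood further apart under this rule. At the H3K27me2 threshold, 34 windows stood at 0.2 exactly and 17 windows with H3K27me3 below 0 just missed it at 0.1975. At the H3K27me3 threshold, 17 windows stood just inside at -0.0025 and 18 windows with enough H3K27me2 stood just outside at 0.

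The members were not spread evenly along the arms. Within 2 Mb of the centromere-side (proximal) end of the assembled arms lay 316 members, 35.6% of them, although only 8.16% of all arm windows lie there. Of the 1782 arm windows rich in H3K27me2 that failed the H3K27me3 condition, 291 (16.3%) lay there as well. An excess near the proximal ends was thus not particular to the members, although their share was the larger one. Members made up 20.1% of the windows in these proximal parts and 3.23% of the windows beyond them. Arm 2R held the most, with 160 members among its 396 proximal windows (40.4%). Arm 3L followed with 89 (22.5%) and arm 2L with 62 (16.3%). Arm 3R was the exception, with 5 members among 396 proximal windows (1.26%), fewer in proportion than the 3.59% along the rest of 3R. Beyond 2 Mb the arms held between 2.38% of windows on 2L and 3.59% on 3R. When each arm was cut into 10 equal parts, the proximal one held 328 of 1895 windows as members (17.3%), and the others held between 2.18% and 4.30%. Over whole arms 2R had 296 members (7.01% of its windows), 3L 239 (4.88%), 2L 161 (3.54%) and 3R 191 (3.43%).

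**Figure D1:**
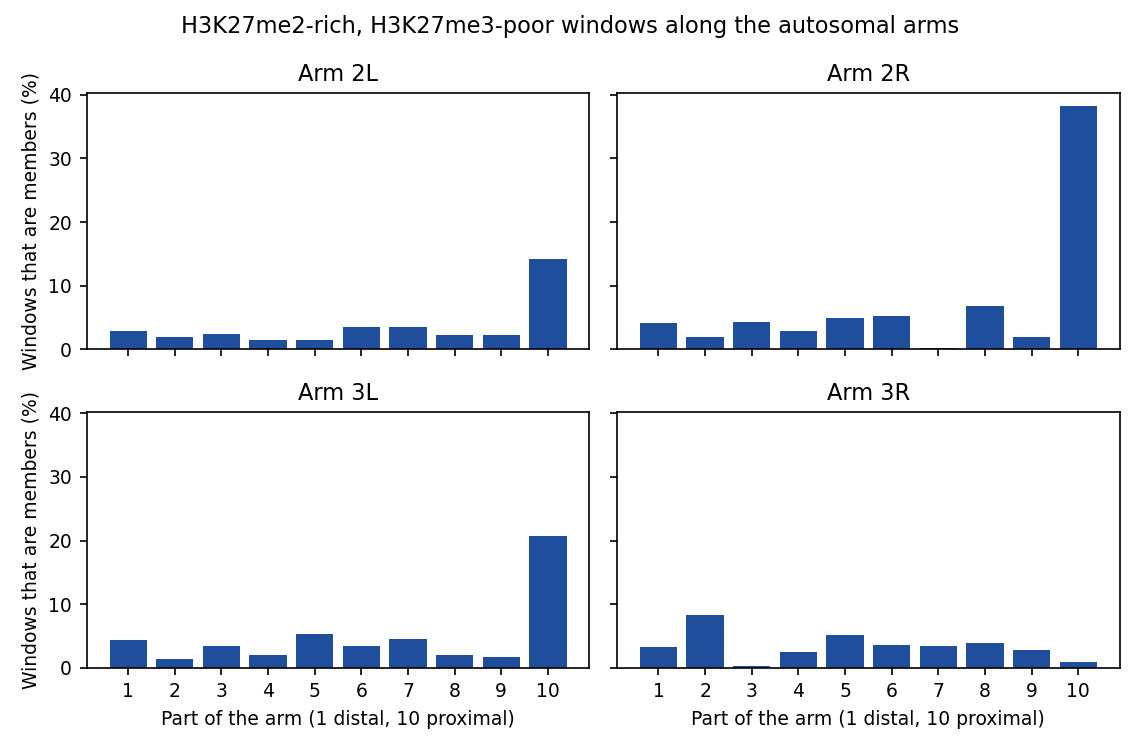
Share of windows that were members (y axis, percent) in 10 equal parts of the 4 autosomal arms (x axis, 1 at the distal and 10 at the proximal end). The proximal part stands highest on 2R (38.3%), 3L (20.8%) and 2L (14.2%), and is low on 3R (0.904%).

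Most member domains were short, and the long ones were proximal. A domain was a set of member windows that touch or overlap, and a single window gives the smallest possible length of 50 kb. The median length was 60 kb, 64 domains (31.1%) consisted of 1 window and 22 reached 100 kb. The 23 domains within 2 Mb of a proximal end had a median length of 100 kb and a maximum of 595 kb, against 55 kb and 140 kb for the 183 domains beyond. The 9 domains of 160 kb or more, of which 3 tied at 160 kb, all lay within 2 Mb of a proximal end, and they held 243 members (27.4%). Along the remaining arms the domains were scattered, with a median gap of 250 kb between neighbours (interquartile range 90 to 552.5 kb, 179 gaps). These lengths depended on how windows were joined, since joining only windows that follow each other by 1 step gave 336 domains of at most 145 kb, and bridging gaps of up to 50 kb gave a longest domain of 1335 kb.

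**Figure D2:**
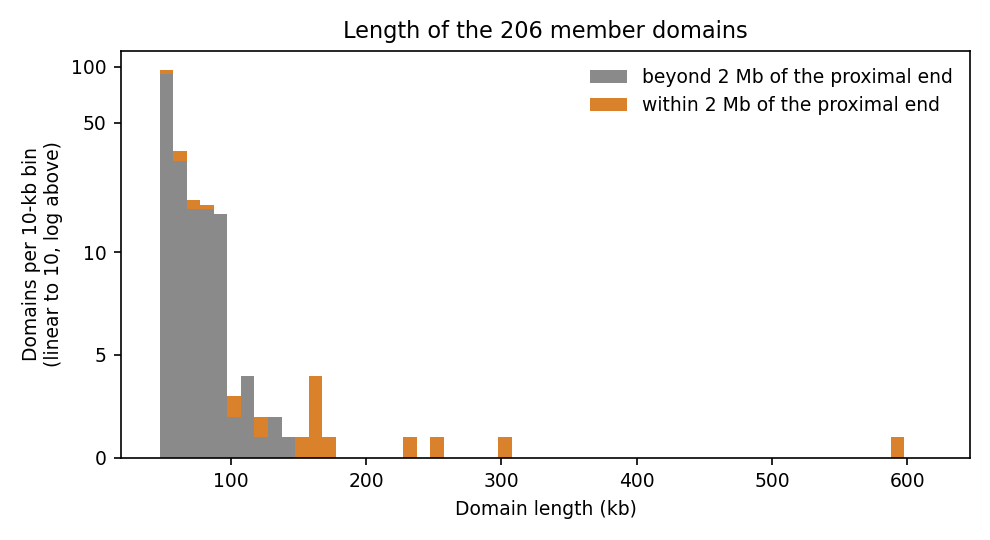
Number of member domains (y axis, linear up to 10 and logarithmic above) by domain length in 10-kb bins (x axis, kb), stacked by distance from the proximal end of the arm. The 183 domains beyond 2 Mb end at 140 kb, and the longest, of 595 kb, is among the 23 proximal ones.

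The longest domain opened arm 2R. It ran from position 10000 to 604999 of 2R in the dm3 assembly (595 kb), where 77 of 110 window positions were members, and 25 of the others missed the H3K27me2 threshold and 9 the H3K27me3 threshold, with 1 position missing both. Its mean H3K27me2 was 0.33 in wild type against 0.31 in SuUR mutants, and its mean H3K27me3 was -0.096 and -0.18. These means were less than 0.1 apart between the genotypes in both marks, but single members differed more. The member centred 335 kb from the proximal end had H3K27me2 of 0.515 in wild type against 0.07 in SuUR mutants. At 420 kb H3K27me3 was 0.165 and -0.17. The other long domains of 2R were not uniform. From 805000 to 1039999 (235 kb, 29 members) H3K27me2 was 0.40 in wild type against 0.29 in SuUR mutants, and H3K27me3 was 0.053 and -0.17. From 1080000 to 1239999 (160 kb, 18 members) H3K27me2 was 0.30 and 0.23, while H3K27me3 was -0.27 in wild type against -0.12 in SuUR mutants. Among the 9 domains of 160 kb or more, this was the single one with less H3K27me3 in wild type. From 1405000 to 1564999 (160 kb, 13 members) H3K27me2 was 0.29 and 0.19, and H3K27me3 was -0.22 and -0.37.

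The 5 domains of 160 kb or more on 2L and 3L had mean H3K27me3 between -0.067 and 0.17 in wild type and between -0.45 and -0.16 in SuUR mutants. On 3L, from 23030000 to 23329999 (300 kb, 34 members), H3K27me3 was 0.034 in wild type against -0.27 in SuUR mutants, and H3K27me2 was 0.37 and 0.25. In that domain every member had H3K27me3 of -0.115 or less in SuUR mutants, while in wild type members reached 0.215. On 2L, from 22600000 to 22849999 (250 kb, 28 members), H3K27me3 was 0.04 in wild type against -0.37 in SuUR mutants. H3K27me2 there was 0.27 in wild type against 0.34 in SuUR mutants, so the marks differed in opposite directions. The same arm held a domain from 22385000 to 22549999 (165 kb, 13 members) with H3K27me3 of -0.067 and -0.45 and H3K27me2 of 0.28 and 0.39. The remaining one on 2L, from 22165000 to 22339999 (175 kb, 11 members), had H3K27me3 of -0.0095 and -0.16 and H3K27me2 of 0.24 and 0.29. In wild type the mean H3K27me3 was not below 0 in the domains from 23030000 and 24375000 of 3L and from 22600000 of 2L. These, like the domain from 805000 of 2R, belong to the set by the average of the genotypes.

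The richest windows in H3K27me2 were proximal as well. All 10 windows with the highest mean lay within 2 Mb of a proximal end. Several of them overlap, as those centred at 850000, 855000 and 860000 of 2R do, so they are not 10 separate places. The window centred at 22515000 of 2L had H3K27me2 of 0.59 in wild type against 0.72 in SuUR mutants, with H3K27me3 of 0.21 and -0.44. The window centred at 860000 of 2R had H3K27me2 of 0.92 and 0.39, the highest wild type value of any member, with H3K27me3 of 0.20 and -0.24. Of the domains with at least 5 members, the highest mean H3K27me2 was found on 3L from 23940000 to 24024999 (85 kb), at 0.58 in wild type against 0.55 in SuUR mutants. On 2R, from 1245000 to 1344999 (100 kb, 11 members), H3K27me2 was 0.29 in wild type against 0.49 in SuUR mutants.

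Differences are given as wild type minus SuUR, and a window was counted as higher or lower when it reached 0.25 in size, a 1.19-fold change. With 1 profile for each genotype these counts are descriptions, read against the same count over all arm windows. H3K27me3 was higher in wild type by at least 0.25 in 186 members (21.0%), against 8.86% of all arm windows. It was lower by at least 0.25 in 107 members (12.1%), against 23.9%. In the 1782 arm windows with mean H3K27me2 of at least 0.2 and mean H3K27me3 of 0 or more, these shares were 21.1% and 27.4%. The share higher in wild type was therefore not particular to the members. The median H3K27me3 difference of the members was 0.05 (SD over windows 0.27, n = 887), against -0.075 for all arm windows, and it was above 0 in 498 members (56.1%, against 36.4%). H3K27me2 went the other way by a small margin. It was higher in wild type by at least 0.25 in 88 members (9.92%, against 12.8%) and lower in 154 (17.4%, against 12.9%), with a median difference of -0.04 (SD 0.23) against 0, and it was above 0 in 382 (43.1%, against 49.8%). After the normalization was redone over the arms alone, the median H3K27me3 difference of all arm windows was -0.011 and that of the members 0.11, with 27.8% of members higher in wild type against 14.1% of all arm windows.

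The proximal members had the larger H3K27me3 difference, and in both parts of the arms the median of the members was above that of all windows there. In the 316 members within 2 Mb of a proximal end, wild type had a median H3K27me3 of -0.025 and SuUR mutants one of -0.24. The difference had a median of 0.2, with 245 members (77.5%) above 0 and 133 (42.1%) at 0.25 or more. The proximal windows as a whole had a median of 0.09, with 60.5% above 0 and 32.6% at 0.25 or more. In the 571 members beyond 2 Mb, the medians of H3K27me3 were -0.105 for wild type and -0.08 for SuUR mutants. There the difference had a median of -0.03, with 44.3% above 0, against -0.09 and 34.3% for all windows beyond 2 Mb, so that the members were less far below 0 than the rest. Among them were 53 members (9.28%) at 0.25 or more and 89 (15.6%) at -0.25 or less, against 6.75% and 24.9% of all windows there. Windows rich in H3K27me2 with H3K27me3 of 0 or more stood at 10.7% and 31.6% there. When each domain counted once, the median over the arms was -0.0063 with 99 of 206 domains above 0. The sign beyond 2 Mb depended on the normalization, as redoing it over the arms gave a median of 0.026 for these members and -0.021 for all windows there, beside 0.27 and 0.15 within 2 Mb. By arm, the proximal members had a median H3K27me3 difference of 0.33 on 2L, 0.11 on 2R and 0.36 on 3L, against 0.155, 0.057 and 0.37 for all proximal windows of these arms. The members were thus not above their surroundings on 3L. The 5 proximal members of 3R had a median of 0.09, against -0.075.

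For H3K27me2 the difference was larger in the members beyond 2 Mb when windows were counted, but not when domains were. The proximal members had a median H3K27me2 of 0.305 in wild type against 0.30 in SuUR mutants, with a median difference of 0. Beyond 2 Mb the medians were 0.23 and 0.28 in the same order. The difference of these members had a median of -0.065, with 117 of 571 (20.5%) at -0.25 or less, against 12.9% of all windows beyond 2 Mb. When each domain counted once, the median was -0.068 for the 23 domains within 2 Mb and -0.027 for the 183 beyond, so the order of the parts depended on the weighting.

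**Figure D3:**
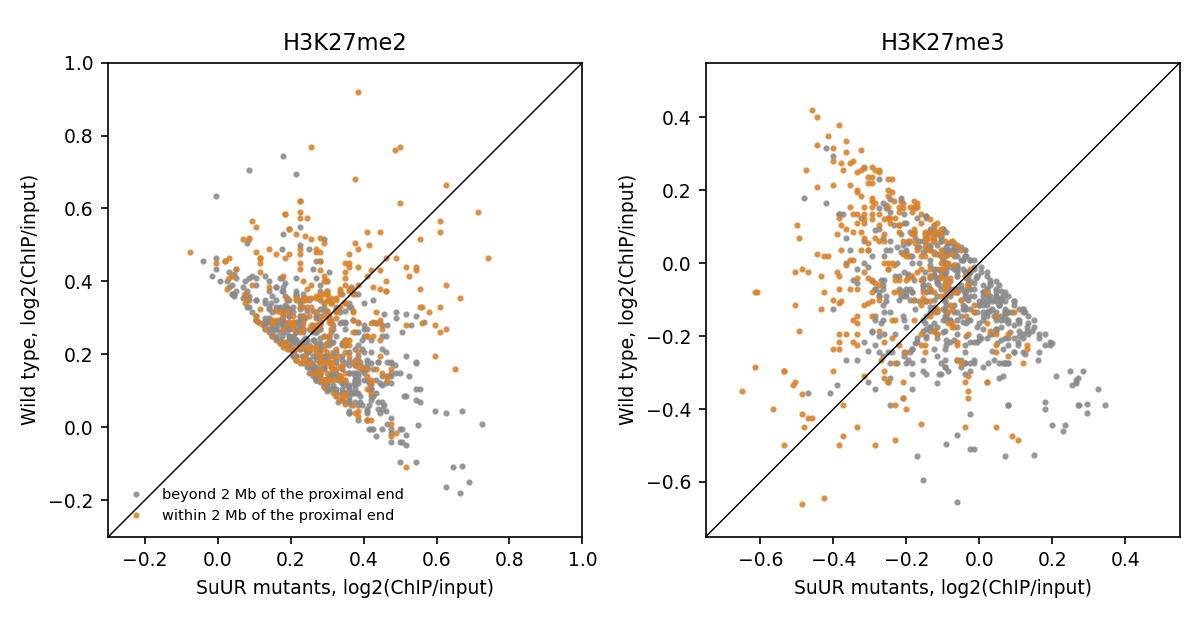
H3K27me2 (left) and H3K27me3 (right) of the 887 members, as log2(ChIP/input) in SuUR mutants (x axis) and wild type (y axis), with the line of equal values. Points within 2 Mb of a proximal end (316) lie mostly above the line for H3K27me3 and on both sides of it for H3K27me2, and the straight borders of the clouds are set by the rule on the mean.

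Among domains of at least 5 members, H3K27me3 was most in excess in wild type in 3 proximal domains of 3L. These ran from 23335000 to 23404999 (0.24 in wild type, -0.40 in SuUR mutants), from 24375000 to 24534999 (0.17 and -0.35, 20 members), and from 23940000 to 24024999 (0.23 and -0.28). In each of them every member was above 0 in wild type and at -0.185 or less in SuUR mutants. Under the rule a member above 0 in wild type must be below 0 in SuUR mutants. The domains were also picked by this difference, so nothing is read from the separation. The 3 domains with the lowest difference lay beyond 2 Mb. On 3R from 14950000 to 15034999 H3K27me3 was -0.44 in wild type against 0.23 in SuUR mutants, with H3K27me2 of 0.20 and 0.34. On 2R from 19290000 to 19379999 (9 members) H3K27me3 was -0.42 and 0.11, with H3K27me2 of 0.21 and 0.35. On 3R from 22965000 to 23079999 (8 members) H3K27me3 was -0.39 and -0.014, with H3K27me2 of 0.31 and 0.32.

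For H3K27me2 the domains of at least 5 members were ranked in the same way. The largest excess in wild type among them was on 3L from 15355000 to 15439999 (85 kb, 8 members), in the middle of the arm. H3K27me2 there was 0.55 in wild type against 0.17 in SuUR mutants, and H3K27me3 was 0.13 and -0.27, so that both marks were higher in wild type. The next ones were the 3L domain from 24375000 (0.39 and 0.26) and a 3R domain from 9290000 to 9429999 (0.30 and 0.18, 10 members). The largest excess in SuUR mutants was on 2R from 15195000 to 15274999 (80 kb, 6 members), where H3K27me2 was -0.11 in wild type against 0.64 in SuUR mutants. Its H3K27me3 was 0.034 in wild type against -0.21 in SuUR mutants. No member of that domain exceeded 0.01 in H3K27me2 in wild type, and none was below 0.5 in SuUR mutants. The rule asked for a mean of 0.2 or more and the domain was picked by its difference, so this separation follows from the choice. On 3R the domains from 22405000 to 22499999 (0.10 and 0.46) and from 24535000 to 24629999 (0.11 and 0.42) showed the same direction. Over the members, the differences of the marks were unrelated, with r of 0.00048 between them across 87 non-overlapping windows that share the same 4 profiles.

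How many windows held both properties in a genotype by itself was asked next. In wild type alone 1372 arm windows (7.14%) met both thresholds, and in SuUR mutants alone 1499 (7.80%), but only 167 met them in both. These 167 were 12.2% of the wild type set, 11.1% of the SuUR set and 18.8% of the members. Windows chosen in wild type had H3K27me2 of at least 0.2 in SuUR mutants in 29.6% of cases, against 17.8% of all arm windows, and H3K27me3 below 0 in 46.4%, against 56.2%. Windows chosen in SuUR mutants had H3K27me2 of at least 0.2 in wild type in 35.3% of cases, against 18.0%, and H3K27me3 below 0 in 52.8%, against 65.0%. Read in the genotype that did not choose them, the sets had median H3K27me2 of 0.105 and 0.13, above the arm median, and median H3K27me3 of 0.02 and -0.025, above the arm medians too. Among the members themselves, 378 (42.6%) met both thresholds in wild type, 553 (62.3%) in SuUR mutants and 123 (13.9%) in neither. The name H3K27me2-rich and H3K27me3-poor therefore holds for the average of the genotypes, and for fewer than 1 in 5 members in each of them.

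The 167 windows that met both thresholds in each genotype formed 57 domains, and 85 of them (50.9%) were proximal. Arm 2R held 90, 3L 34, 2L 22 and 3R 21. They had median H3K27me2 of 0.295 and 0.30 in wild type and SuUR mutants, and their median H3K27me3 was -0.155 in each genotype. The clearest stretches lay in the first domain of 2R, from 85000 to 204999 (14 windows) and from 295000 to 409999 (12 windows). In the latter H3K27me2 was 0.45 in wild type against 0.35 in SuUR mutants, and H3K27me3 was -0.30 in both genotypes.

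The members were then compared with the region lists of the study. SuUR-sensitive regions (SSRs) and SuUR-non-sensitive regions (SNRs) were set by the study on earlier ChIP-chip profiles made with another H3K27me3 antibody, Abcam #6002, and SNRs hold the Pc-bound domains. On those profiles SSRs were chosen for H3K27me3 that was lower in SuUR mutants than in wild type. Under-replicated regions were pooled by the study from earlier reports. A window was placed in a region by its centre. In SSRs lay 555 members (62.6%), against 27.8% of all arm windows. Within 2 Mb of a proximal end 298 of 316 members (94.3%) lay in SSRs, against 56.5% of all windows there. Beyond 2 Mb 257 of 571 members (45.0%) did, against 25.3%. Of the 150 SSRs on the arms, 74 (49.3%) held at least 1 member centre. Windows rich in H3K27me2 whose mean H3K27me3 was 0 or more, 1782 on the arms, gave 61.1% in SSRs over the arms. Within 2 Mb 276 of 291 of them lay in SSRs, and beyond 2 Mb 54.5% did. The overlap with SSRs was thus not particular to the members.

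In under-replicated regions lay 190 members (21.4%), against 21.9% of all arm windows. The share was 6.65% within 2 Mb of a proximal end, against 16.1% of all windows there, and 29.6% beyond, against 22.5%. The proximal reading depended on how under-replication was assigned. When a whole SSR counted as under-replicated for an overlap of 1 bp with the list, 214 of the 298 proximal members in SSRs (71.8%) lay in such SSRs, against 64.7% of all proximal SSR windows. Windows rich in H3K27me2 with H3K27me3 of 0 or more had 52.4% in under-replicated regions beyond 2 Mb. Of the SSR windows beyond 2 Mb, 59.1% of the members and 64.9% of all had their centre in a listed under-replicated region. Among those rich in H3K27me2 with H3K27me3 of 0 or more it was 76.2%. The first domain of 2R illustrated the proximal case, as all 77 of its members lay in an SSR and none in a listed under-replicated region. The study also describes loci of heterochromatin near the centromeres as under-replicated. How far the pooled list covers the proximal ends was not tested, so absence from it is not read as full replication. Among domains of at least 5 members, the highest H3K27me2 excess in wild type was on 3L from 15355000. All 8 members of that domain lay in an SSR and in an under-replicated region.

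No member centre lay in an SNR, against 5.67% of all arm windows. SNRs are regions of high H3K27me3 and the rule asked for low H3K27me3, so this absence is bound to the rule and nothing is read from it. The same holds for the distance, since windows near an SNR take up its signal. Beyond 2 Mb the members lay at a median of 311 kb from the nearest SNR, against 256 kb for all windows, and 10.3% were within 50 kb of one, against 17.4%. In none of the 3 lists lay 312 members (35.2%), against 62.6% of all arm windows. Of these members 297 lay beyond 2 Mb, which is 52.0% of the members there, against 64.8% of all windows there.

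**Figure D4:**
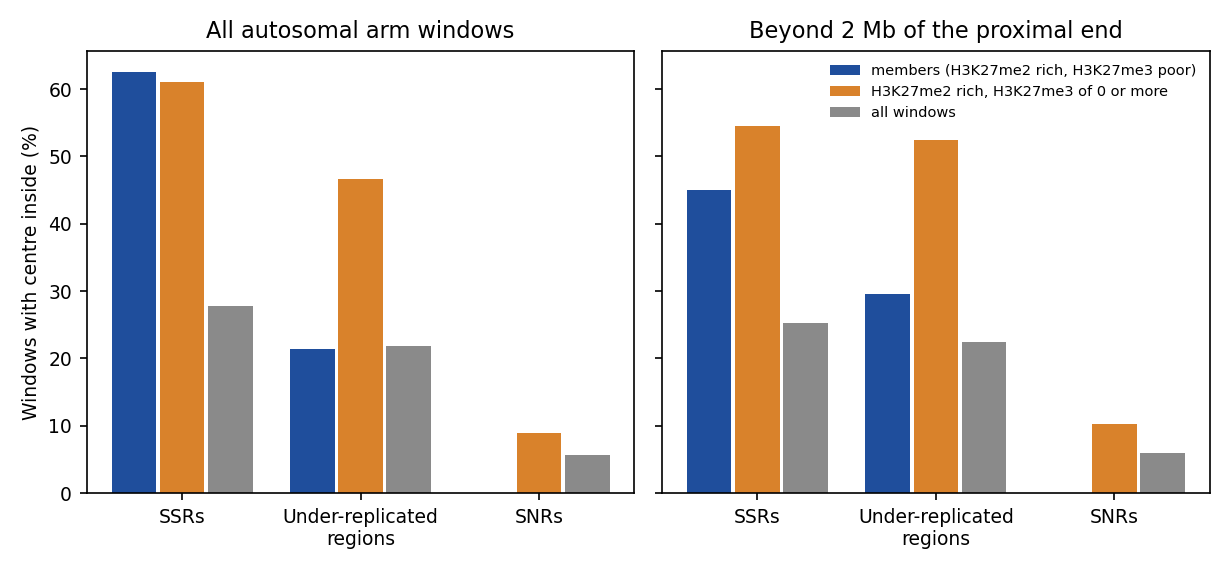
Share of windows with the centre in an SSR, an under-replicated region or an SNR (y axis, percent), for members, for H3K27me2-rich windows with H3K27me3 of 0 or more, and for all windows, over the arms (left) and beyond 2 Mb of the proximal ends (right). Members stand at 62.6% in SSRs over the arms and at 29.6% in under-replicated regions beyond 2 Mb, where windows rich in both marks reach 52.4%.

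H3K27me3 was the higher in wild type in members inside SSRs, the direction by which the study chose SSRs on other profiles. Outside SSRs both marks were the lower in wild type, as H3K27me3 was over all windows there. The 555 members in SSRs had a median H3K27me3 of -0.035 in wild type, and -0.155 in SuUR mutants, with a median difference of 0.125. Of them 69.9% were above 0 and 30.6% at 0.25 or more, against 50.3% and 19.1% of all SSR windows, whose median was 0.0050. Their H3K27me2 was 0.285 in wild type against 0.28 in SuUR mutants. The 332 members outside SSRs had H3K27me3 of -0.145 in wild type against -0.07 in SuUR mutants, with a median difference of -0.07 and 33.1% above 0, against -0.105 and 31.1% of all windows outside SSRs. Their H3K27me2 was 0.195 in wild type against 0.30 in SuUR mutants, with a median difference of -0.11 against -0.015 for all windows outside SSRs. Without the proximal 2 Mb the order was the same. The 257 members in SSRs had a median H3K27me3 difference of 0.055 and the 314 outside had -0.075, against -0.025 and -0.11 for all such windows. Normalized over the arms alone, the H3K27me3 difference had a median of 0.18 inside SSRs and -0.018 outside. Whether the members inside differ from those outside beyond error could not be tested with 1 profile for each genotype.

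The surroundings of the domains were traced for the 94 domains with at least 3 members, which have 188 edges. At the outermost member centre the mean H3K27me2 was 0.22 ± 0.14 for wild type and 0.29 ± 0.12 for SuUR mutants (SD over edges, n = 188). It was 0.069 and 0.086 at 25 kb outside, and -0.0037 and -0.039 at 50 kb outside. Windows of 50 kb overlap until 50 kb, so a sharp border would give a slope of this width as well. H3K27me3 moved less, from -0.09 ± 0.18 and -0.11 ± 0.16 at the outermost centre to 0.0016 ± 0.35 and 0.027 ± 0.34 at 50 kb outside. The edges were set by the rule on both marks, so the decline of H3K27me2 and the narrower spread of H3K27me3 inside follow from the choice of members.

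**Figure D5:**
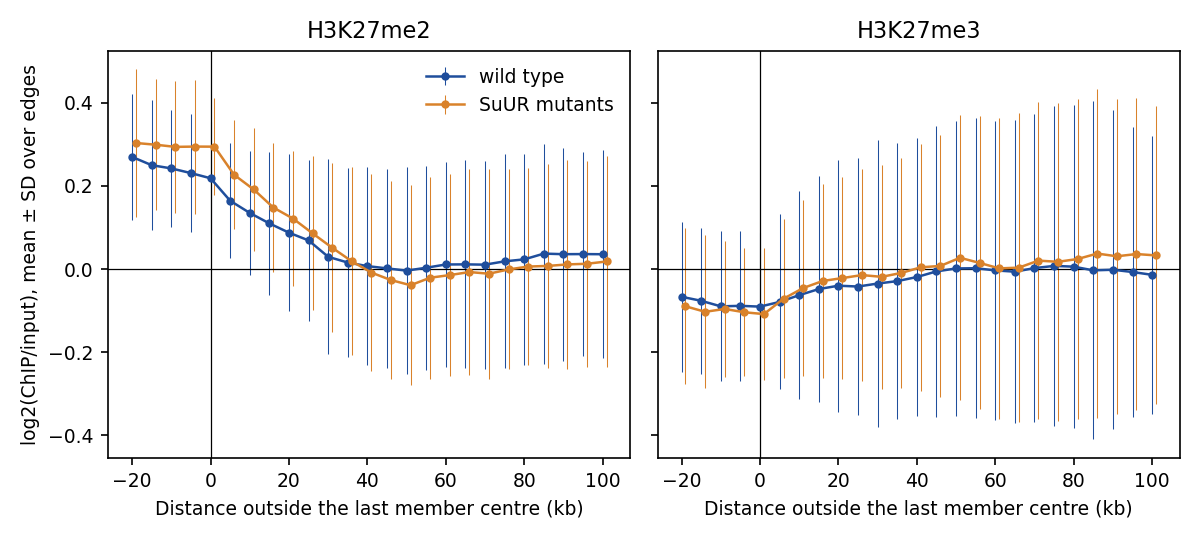
H3K27me2 (left) and H3K27me3 (right) around the edges of the 94 domains with at least 3 members, as mean log2(ChIP/input) with SD over edges (y axis) against distance outside the outermost member centre (x axis, kb, with SuUR points moved by 1 kb to the right for clarity). H3K27me2 declines to about 0 over 50 kb in both genotypes, and the spread of H3K27me3 widens outside the domains, both as the rule for members sets them.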

How the data were processed

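Salivary gland ChIP-seq profiles of H3K27me3 and H3K27me2 of the y,w strain (wild type) and SuUR mutants were used, 4 profiles from 8 libraries. The 12 embryo libraries were not analysed here. The authors mapped reads to BDGP R5/dm3 with MOSAIK, combined read pairs, calculated RPM and took the ChIP/input ratio, and they deposited its log2 in 50-kb windows at 5-kb steps. The deposited log2 values were quantile normalized between genotypes, which was checked: within a mark, sorted values differed by 0 at most. Whether libraries were pooled is not given in the sources used here.

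Windows were joined on chromosome and position, and the position was taken as the window centre. Member windows that touch or overlap formed domains, reaching to the outer ends of the outermost windows. The members, region lists and comparisons were chosen with earlier results of these data known. Named domains were the 8 longest (9 with ties) and, among domains of at least 5 members, the 3 highest in mean H3K27me2 and the 3 with the highest and lowest difference of each mark. Windows named by their level are the 10 highest in mean H3K27me2, of which those shown were chosen after their values were seen. Alternatives changed the thresholds, the joining, the normalization, the windows used and the placing in regions. The calculations were tested on simulated data (Python 3.11.15, numpy 2.4.6, pandas 2.3.3, matplotlib 3.10.9). No dm3 genome or annotation was used here, so no genes or sequences are given.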

Additional observations from a re-analysis of the deposited data

How the results depend on the processing

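No paired analysis was possible because each genotype and mark has 1 salivary gland profile, and the numbered embryo libraries were not analysed here. The cause of the changes below was not tested, beyond what each alternative does by construction. The number of members was 1516 and 477 with the H3K27me2 threshold at 0.15 and 0.25, 375 and 1540 with the H3K27me3 threshold at -0.1 and 0.1, and 167 when each genotype had to meet both thresholds. Domains numbered 336 when joined at 1 step only, 121 at the H3K27me2 threshold of 0.25 and 109 at the H3K27me3 threshold of -0.1. The longest was 145 kb at 1 step, 1335 kb with bridged gaps, 275 kb at the H3K27me2 threshold of 0.25 and 195 kb at the H3K27me3 threshold of -0.1, and the summed length was 8.66 Mb and 7.45 Mb at these thresholds and 23.82 Mb at the H3K27me2 threshold of 0.15. Without the proximal 2 Mb, members were 3.23% of windows, the median H3K27me3 difference was -0.03, 9.28% of members were higher in wild type in H3K27me3, and, in an alternative chosen after seeing the data, 45.0% lay in SSRs and 29.6% in under-replicated regions. Counted over domains, 9.71% were higher in wild type in H3K27me3. With 0.15 or 0.5 in place of 0.25 as the size that counts, 33.9% or 5.30% of members were higher and 22.4% or 2.59% lower in wild type in H3K27me3, and 17.7% or 0.676% higher and 32.4% or 2.48% lower in H3K27me2. Where each genotype had to meet both thresholds, H3K27me3 was higher in 8.38% and lower in 4.79%, H3K27me2 was higher in 1.80% and lower in 3.59%, and 50.9% lay within 2 Mb of a proximal end, the last also chosen after seeing the data. Windows wholly inside SSRs made up 51.8% of members, against 20.2% of all arm windows, and 31.0% lay in under-replicated regions at the H3K27me3 threshold of 0.1. Where no share of all arm windows is given here or above, these shares show only how the members' values moved with the setting. No excess over the arms is read from them. Windows chosen in wild type had medians of 0.105 in H3K27me2 and 0.02 in H3K27me3 in SuUR mutants, and windows chosen in SuUR mutants had 0.13 and -0.025 in wild type. The other 89 values stayed within fixed limits, which were 1.5 times for counts and lengths and the distance from the middle to the end of a 95% interval over the 87 non-overlapping members for medians and shares. These limits are wide for small values. Windows of 1 genome are not replicates, so the limits do not measure error. The median H3K27me3 difference of the members was 0.05 by window and -0.0063 by domain, which counted as within the limits although the sign changed. By domain 6.31% were higher in wild type in H3K27me2, against 9.92% of members, and 1.13% of members overlapped an SNR by 1 bp or more, against 0 by the centre. The 87 non-overlapping members were compared after multiplying by 10. Depth is unknown, so no interval can be put on a window.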
